A study of Mus musculus with 8 samples.

Results

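The transforming growth factor-β (TGF-β) pathway was followed in pancreatic islets through 10 genes: the ligands Tgfb1, Tgfb2 and Tgfb3, the receptors Tgfbr1, Tgfbr2 and Tgfbr3, and the intracellular mediators Smad2, Smad3, Smad4 and Smad7. The members were all array probes, control spots excluded, whose RefSeq transcript belonged to one of these symbols. They were 19 of 56605 probes and 10 of 22911 named genes. TGF-β is a known inducer of fibulin-5 (Fbln5), the extracellular matrix protein that the study removed from β-cells, and the pathway is described here for that reason.

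Islets were compared between βFbln5KO mice, in which Fbln5-floxed alleles were crossed with Ins1-cre, and control mice that carried the floxed alleles, so that the floxed Fbln5 locus was common to both groups. Cre was driven by the mouse insulin 1 promoter, and the islets also held cells in which that promoter is silent. All mice were 11 weeks old and, per the study's methods, male littermates. RNA was taken directly after isolation from 150 islets per extraction, with 4 biological replicates per group and 1 array each (1-colour Agilent arrays, total RNA). Because whole islets were measured, fewer cells of a type and less RNA per cell cannot be told apart.

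TGF-β ligands are secreted in a latent form that is held in the matrix and released by integrins or proteases. The active ligand binds the type II receptor Tgfbr2, which phosphorylates the type I receptor Tgfbr1, and the coreceptor Tgfbr3 (betaglycan) presents ligand to them. Tgfbr1 phosphorylates Smad2 and Smad3, which join Smad4 and enter the nucleus, while Smad7 is induced by the pathway and blocks it at the receptor. In islets the pathway is known for its part in β-cell proliferation and identity.

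No difference in mRNA level between βFbln5KO and control islets passed the test for any of the 10 genes. Values are log2 processed signals minus the 75th percentile of the same array, a scale on which 0 is the level of that percentile and 1 unit is a doubling, and no probe's level can be set against another probe's. With limma across all probes and Benjamini-Hochberg adjustment, 0 of 19 member probes passed an adjusted p of 0.05, where 0.0106% of all probes did (6 in number). At an unadjusted p under 0.05 it was again 0 of 19, against 24.7% of all probes, 20.7% being higher in βFbln5KO islets and 3.97% lower. Of the member probes, 16 were well above background on all 8 arrays according to the scanner software, and for probes of that kind the share at an unadjusted p under 0.05 was 6.28%, with 0.853% higher and 5.42% lower. The values of the control and βFbln5KO arrays overlapped for all 19 probes. Of all probes detected this well, 3.48% were lower without overlap in βFbln5KO islets and 0.661% were higher.

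The intervals show how closely each difference was measured. Taking the brightest probe of each gene, the fold change (βFbln5KO over control) lay between 0.906 for Tgfbr2 and 1.08 for Tgfbr1, and the 95% intervals of these 10 probes lay between 0.762-fold and 1.27-fold. Each other well-detected probe was measured less closely than the brightest probe of its own gene, though some of these intervals also lay inside that range. The widest interval was that of the second Smad3 probe, from 0.387-fold to 2.20-fold. The median log2 difference (βFbln5KO minus control) was -0.03 over the 10 genes, 2 of them above 0 and 8 below, and -0.01 over the 13650 named genes whose brightest probe was well above background throughout. Over the 16 well-detected member probes the median was -0.02, and over all 26612 such probes it was also -0.02, with 68.8% and 59.1% of the probes below 0. The intervals of the individual probes are shown next.

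**Figure D1:**
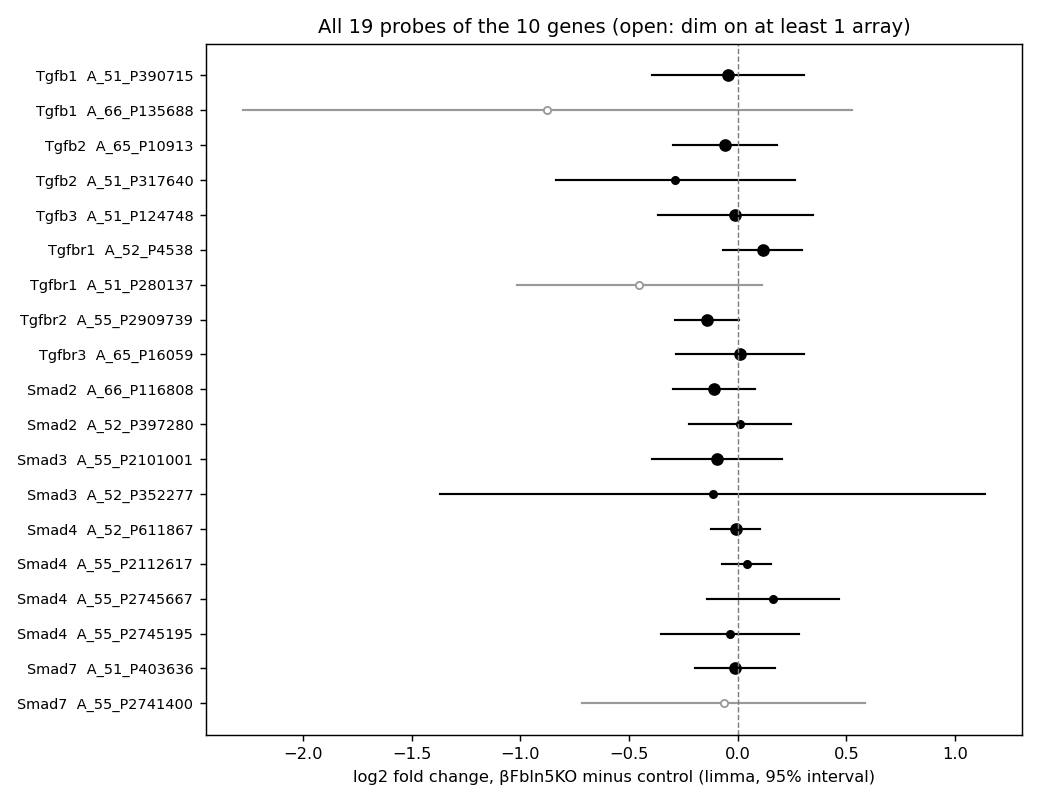
Log2 fold change, βFbln5KO minus control, of all 19 probes of the 10 genes, with the 95% interval from limma as a line. Large points are the brightest probe of each gene, and open grey points are the 3 probes that were not well above background on every array; all 19 intervals include 0.

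Fbln5 itself was read by 1 probe that was well above background on all 8 arrays. Its levels in the control islets were -1.70, -1.31, -2.05 and -1.83 in replicates 1 to 4, and in the βFbln5KO islets -2.74, -2.40, -2.38 and -1.38. Replicates 1, 2 and 3 of the βFbln5KO group lay below all controls, while the library labelled βFbln5KO replicate 4 lay within the control range. The log2 difference was -0.50 ± 0.29 (SE, n = 4 per group; limma adjusted p = 0.342), and the exact two-sided permutation test gave p = 0.171, where the smallest p that 4 against 4 arrays allow is 0.029. Without βFbln5KO replicate 1 the difference was -0.33, and without the library labelled βFbln5KO replicate 4 it was -0.78. The last value is a description only, because that library was singled out by the same value. In that setting 11206 probes higher and 338 lower also passed an adjusted p of 0.05 by limma, Fbln5 among them, against 6 with all arrays. The paper also measured the deletion by quantitative PCR and immunoblot, and reports lower Fbln5 mRNA and protein in βFbln5KO islets. The deletion removes the first exons, and the place of the array probe relative to them is not given in the sources used here, so its level does not settle the label of that library. Leaving it out brought no member past an adjusted p of 0.05, and the members that moved most without it are given below.

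RefSeq (GRCm38.p6) places 2 transcript starts of Fbln5 on the minus strand of chromosome 12, 635 bases apart. Both promoters are shown because Fbln5 is at once the deleted gene and a gene that the pathway induces, and the promoter of Tgfbr2, on the minus strand of chromosome 9, is shown because Tgfbr2 was the member nearest to a difference. Each runs 5′ to 3′ from 250 bases before to 50 bases after the start, with capitals marking CAGAC or its reverse complement GTCTG, the letters of the motif that Smad proteins are known to bind, searched on both strands with no other motif.
Fbln5, chr12:101819070-101819369: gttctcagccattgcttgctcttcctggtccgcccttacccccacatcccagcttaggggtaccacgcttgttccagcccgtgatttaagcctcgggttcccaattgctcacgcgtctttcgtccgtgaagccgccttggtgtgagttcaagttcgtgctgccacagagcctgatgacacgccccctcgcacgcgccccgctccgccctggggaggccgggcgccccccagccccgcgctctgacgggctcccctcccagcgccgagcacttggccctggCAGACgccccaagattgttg
Fbln5, chr12:101818435-101818734: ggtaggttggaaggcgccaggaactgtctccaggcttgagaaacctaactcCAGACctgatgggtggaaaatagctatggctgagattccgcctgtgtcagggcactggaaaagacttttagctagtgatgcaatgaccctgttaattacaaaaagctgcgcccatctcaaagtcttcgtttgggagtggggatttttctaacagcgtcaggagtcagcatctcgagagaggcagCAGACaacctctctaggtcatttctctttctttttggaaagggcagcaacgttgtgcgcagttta
Tgfbr2, chr9:116175314-116175613: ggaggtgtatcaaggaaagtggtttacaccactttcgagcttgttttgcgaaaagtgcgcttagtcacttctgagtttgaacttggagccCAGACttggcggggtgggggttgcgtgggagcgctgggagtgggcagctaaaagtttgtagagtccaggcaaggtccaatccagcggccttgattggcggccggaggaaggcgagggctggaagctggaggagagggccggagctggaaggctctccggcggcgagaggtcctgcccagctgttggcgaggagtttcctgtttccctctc
The motif stood once in the first of these sequences, at 2 places in the second and once in the Tgfbr2 promoter. It was also found in 49.6% of the 32851 RefSeq promoters of this length that were searched, so these matches are no more than a description. Promoters were searched for only 5 of the 10 genes, and 3 of their 6 promoters held the motif. Promoters of Tgfb3, Tgfbr3, Smad2, Smad4 and Smad7 were not in the search, so it says nothing about the motif in these genes. Tgfb2 had 2 matches, the promoters of Tgfb1 and Smad3 had 0, and Tgfbr1 had 0 and 1 at its 2 starts.

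Among the ligands, Tgfb1, the isoform most widely made by immune and stromal cells, was read by a pair of probes. The brighter one gave -3.23, -2.87, -2.98 and -3.01 in the control islets and -3.29, -2.98, -3.00 and -3.01 in the βFbln5KO islets. Replicate 1 was the lowest array in both groups and the remaining 6 arrays were close together. The log2 difference was -0.04 ± 0.15 (SE, n = 4 per group), with a 95% interval from -0.39 to 0.30 and a limma adjusted p of 0.911. The other Tgfb1 probe was well above background on 1 array only, control replicate 1 at -3.55, and lay between -6.65 and -5.30 on the other arrays, so no fold is given for it.

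Tgfb2, an isoform known from developing epithelia, was well above background on all 8 arrays by both of its probes. The brighter probe read -1.02, -1.17, -1.05 and -1.12 in the control islets, and -1.28, -1.33, -1.11 and -0.88 in the βFbln5KO islets. The βFbln5KO values extended both below and above the controls, so that the SD was 0.202 against 0.066. On the log2 scale the groups differed by -0.06 ± 0.11 (SE; limma adjusted p = 0.811). The second probe read -2.41, -2.53, -2.35 and -2.66 in control and -3.50, -2.74, -2.54 and -2.33 in βFbln5KO islets, with a difference of -0.29 ± 0.24 (SE; limma adjusted p = 0.556). On both probes replicates 1 and 2 of the βFbln5KO group lay below all controls and replicate 4 lay above them, and the size of both differences rested on single arrays. Over the 4 βFbln5KO arrays left out in turn, the brighter probe ran from -0.15 without replicate 4 to -0.001 without replicate 2, and the other from -0.44 without replicate 4 to -0.05 without replicate 1.

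Tgfb3, the third ligand, was read by 1 probe. The control islets gave -0.83, -0.91, -1.23 and -0.48, and the βFbln5KO islets -0.94, -0.63, -1.06 and -0.87. All 4 βFbln5KO arrays lay inside the control range. The fitted log2 difference was -0.01 ± 0.16 (SE; limma adjusted p = 0.979).

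The plot of the brightest probe of each gene shows how the arrays fell, gene by gene.

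**Figure D2:**
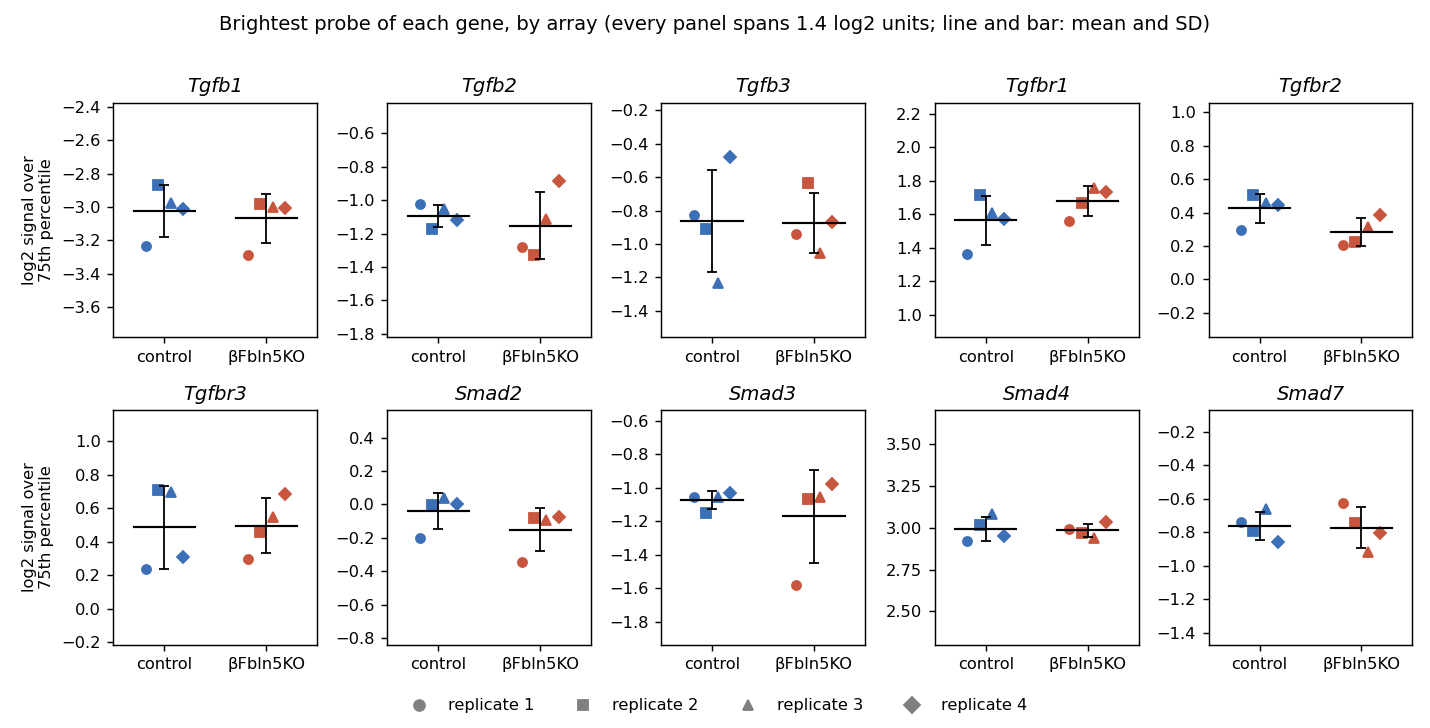
Log2 signal over the 75th percentile of the array (vertical axis, 1.4 units in every panel) for the brightest probe of each of the 10 genes in 4 control arrays (blue) and 4 βFbln5KO arrays (red). The marker shape gives the replicate number, the line the mean and the bar the SD; the groups overlap in every panel, and Tgfbr2 is the gene with the smallest p.

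Of the receptors, Tgfbr2, the ligand-binding type II receptor, came nearest to a difference. Its single probe read 0.30, 0.51, 0.46 and 0.44 in the control islets and 0.21, 0.22, 0.31 and 0.39 in the βFbln5KO islets. Replicates 1 and 2 of the βFbln5KO group lay below all controls, and replicates 3 and 4 lay between control replicate 1 and the other controls. This gave a log2 difference of -0.14 ± 0.06 (SE, n = 4 per group), a fold of 0.906 with a 95% interval from 0.818 to 1.00, which did not pass the test (limma unadjusted p = 0.0565, adjusted p = 0.220). The exact two-sided permutation test gave p = 0.086.

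Which arrays and scaling were used decided on which side of an unadjusted p of 0.05 Tgfbr2 fell, and no setting gave an adjusted p under 0.110. Without control replicate 1 the log2 difference was -0.19 (limma unadjusted p = 0.0171), and without the library labelled βFbln5KO replicate 4 it was -0.18 (limma unadjusted p = 0.0255). The Tgfbr2 probe lies in spot row 351 of the array, and among well-detected probes in spot rows 321 to 352 the median log2 difference between the groups was -0.05, against -0.01 in spot rows 1 to 32. With the median deviation of each array in bands of 32 spot rows removed, the Tgfbr2 difference was -0.09 (limma adjusted p = 0.474). The 5 member probes beyond spot row 320, which read Tgfbr2, Tgfb1, Tgfbr1, Smad2 and Smad3, all had differences below 0, as had 14 of all 19 member probes. With the row trend removed, 4 of the 5 were still below 0, and Tgfb1 was at 0.008. The part of the spot row in these differences was not tested further.

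Tgfbr1, the type I receptor kinase, had a pair of probes with fitted differences of opposite sign, as had Smad2 and Smad4. The brighter probe read 1.36, 1.72, 1.61 and 1.57 in the control islets and 1.56, 1.67, 1.76 and 1.73 in the βFbln5KO islets, with replicates 3 and 4 of the βFbln5KO group above all controls. Its log2 difference was 0.11 ± 0.08 (SE, n = 4 per group; limma adjusted p = 0.456; exact permutation p = 0.257), and it ran from 0.048 without control replicate 1 to 0.165 without control replicate 2.

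The dimmer Tgfbr1 probe lay near the detection limit. It read -3.72, -4.34, -4.19 and -4.14 in the control islets, all well above background, and -4.78, -4.19, -4.51 and -4.72 in the βFbln5KO islets, none of them well above background. Replicates 1, 3 and 4 of the βFbln5KO group lay below all controls and replicate 2 lay among them. The fitted log2 difference was -0.45, with a 95% interval from -1.02 to 0.11, and did not pass (limma adjusted p = 0.318). Set against the lowest signal called well above background on each βFbln5KO array, or the value of the probe where that was higher, as on replicate 2, the group means correspond to a level at least 1.2-fold lower in βFbln5KO islets. This figure was 1.065-fold against the highest of these limits and 1.1-fold without control replicate 1, no fold remained with both, and the interval of the difference includes no change. The detection limit was itself higher on the βFbln5KO arrays, between -4.70 and -4.19, than on the control arrays, between -5.01 and -4.79. Across the whole array 299 probes, or 0.528%, were well above background on all control and no βFbln5KO arrays, and 1 probe, or 0.00177%, the other way round.

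Tgfbr3, the coreceptor betaglycan, read 0.23, 0.71, 0.70 and 0.31 in the control islets and 0.30, 0.46, 0.55 and 0.69 in the βFbln5KO islets. All 4 βFbln5KO values fell inside the control range. The log2 difference was 0.01 ± 0.13 (SE; limma adjusted p = 0.976).

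Of the receptor-activated Smads, Smad2 was read by a probe for each of 2 RefSeq transcripts. The brighter probe read -0.20, -0.01, 0.04 and 0.00 in the control islets and -0.34, -0.08, -0.10 and -0.08 in the βFbln5KO islets. Replicate 1 was again the lowest array of either group. On the log2 scale the groups differed by -0.11 ± 0.08 (SE; limma adjusted p = 0.499), with values from -0.16 without control replicate 1 to -0.05 without βFbln5KO replicate 1. The other probe gave 0.01 ± 0.10 (SE; limma adjusted p = 0.970).

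Smad3, the partner of Smad2, read -1.06, -1.15, -1.05 and -1.03 in the control islets and -1.58, -1.06, -1.05 and -0.98 in the βFbln5KO islets by its brighter probe. Only βFbln5KO replicate 1 stood away from the other arrays. The fitted log2 difference was -0.10 ± 0.13 (SE; limma adjusted p = 0.748), and it was 0.04 without replicate 1 of the βFbln5KO group and -0.16 without replicate 4. The second Smad3 probe read -3.29, -2.99, -3.47 and -1.42 in control and -3.33, -3.65, -3.05 and -1.60 in βFbln5KO islets, with replicate 4 far above the other arrays in both groups. Replicate 4 was also the highest array of both groups by the brighter probe, but by a much smaller gap. Its difference was -0.11 with an SE of 0.55, the widest of the 16 well-detected probes, and over the arrays left out in turn it ran from -0.55 without βFbln5KO replicate 4 to 0.34 without control replicate 4.

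**Figure D3:**
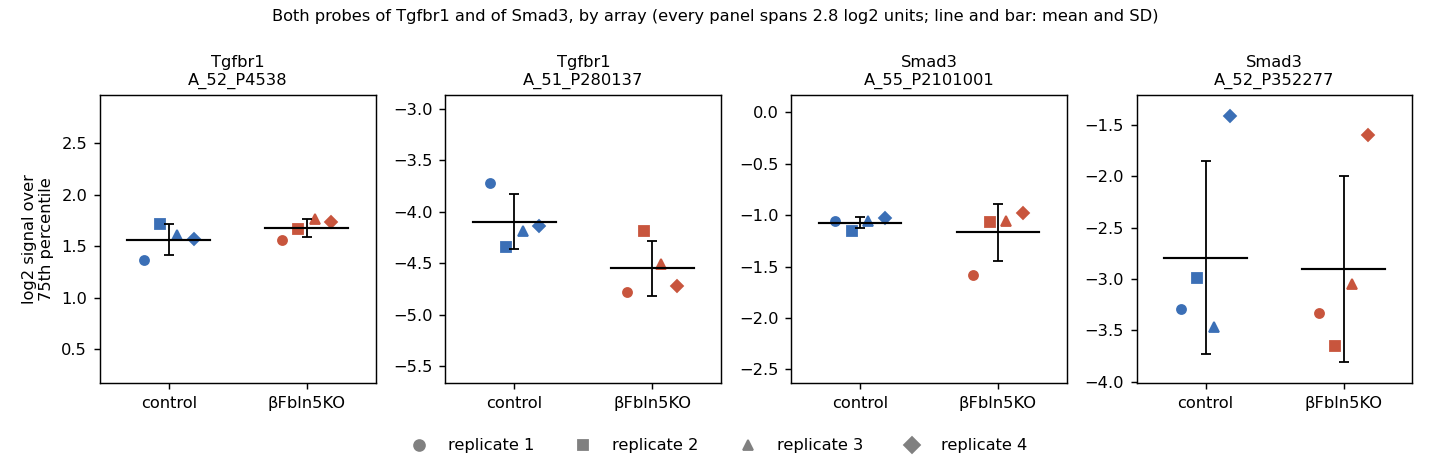
Log2 signal over the 75th percentile of the array (vertical axis, 2.8 units in every panel) for both probes of Tgfbr1 and of Smad3, by array, with the marker shape for the replicate number, the line for the mean and the bar for the SD. The second Tgfbr1 probe was not well above background on any βFbln5KO array, so its points there give only a limit, and the second Smad3 probe is high on replicate 4 of both groups.

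Smad4, the shared partner of the activated Smads, had the smallest error of the 10 genes by its brightest probe. That probe read 2.92, 3.01, 3.08 and 2.95 in the control islets and 3.00, 2.97, 2.94 and 3.03 in the βFbln5KO islets, all 4 of the latter within the control range. This gave a log2 difference of -0.01 ± 0.05 (SE, n = 4 per group), a fold of 0.994 with a 95% interval from 0.920 to 1.07. The other 3 Smad4 probes gave 0.04 ± 0.05, 0.16 ± 0.13 and -0.03 ± 0.14 (SE), none with a limma adjusted p under 0.541.

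Smad7, the inhibitory Smad and a direct target of the pathway, read -0.74, -0.79, -0.66 and -0.86 in the control islets and -0.62, -0.75, -0.92 and -0.80 in the βFbln5KO islets. The βFbln5KO values spread on both sides of the control range. The log2 difference was -0.01 ± 0.08 (SE; limma adjusted p = 0.959). The second Smad7 probe was not well above background on any array and gives no fold.

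The members varied among the arrays in a way that crossed the groups. Of the 16 well-detected member probes, βFbln5KO replicate 1 held the lowest value of its group for 8 and βFbln5KO replicate 4 the highest for 8. Control replicate 1 held the lowest value of its group for 7. Without the library labelled βFbln5KO replicate 4, the log2 differences of the 10 genes lay between -0.18 for Tgfbr2 and 0.10 for Tgfbr1, Tgfbr3 turned from 0.01 to -0.05, and the lowest limma adjusted p was 0.110. The median SD of these probes was 0.14 in control and 0.154 in βFbln5KO islets, against 0.143 and 0.132 over all well-detected probes. All 8 arrays were on 1 slide and scanned once, but the control arrays filled its first row and the βFbln5KO arrays its second, so that genotype and slide row cannot be told apart. In both rows the slide column had the same number as the replicate. Patterns shared by same-numbered arrays therefore cannot be told apart from slide column. The control arrays had 30928 to 32225 probes well above background and the βFbln5KO arrays 28564 to 30882.

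Another 90 genes around the pathway, grouped by role, were read by their brightest probe, and 76 of them were well above background on all 8 arrays. By limma none passed an adjusted p of 0.05, where 0.0131% of all named genes did. At an unadjusted p under 0.05, 3 were higher in βFbln5KO islets and 2 lower, against 16.8% and 2.68% of all named genes. The 3 higher ones were the integrin subunit Itgb6, the ligand Mstn (myostatin) and the antagonist Grem1, named although the rule for named genes did not pick them, and all 3 were dim, with no array on which the scanner software called them detected. Among the 76 well-detected genes 0 were higher and 2 lower, Bgn and Acvr2b, against 1.01% and 3.08% of the well-detected named genes.

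**Figure D4:**
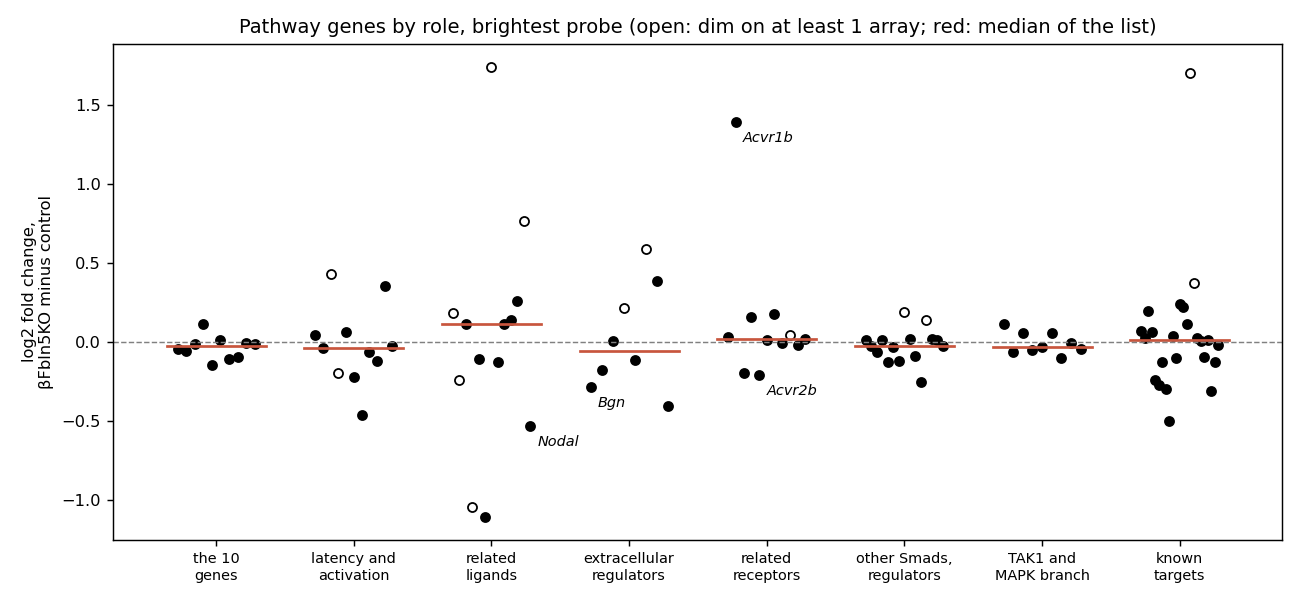
Log2 fold change, βFbln5KO minus control, by the brightest probe of the 10 genes and of 90 further pathway genes in 7 groups by role; each point is a gene, filled where it was well above background on all 8 arrays, and the red line is the median of the group. The medians lie between -0.06 and 0.11, the open points spread most widely, and Bgn and Acvr2b are the filled points with an unadjusted limma p under 0.05.

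Biglycan (Bgn), a small matrix proteoglycan known to bind TGF-β, was lower in βFbln5KO islets on every array, though it did not pass adjustment. It read -1.96, -2.08, -2.01 and -2.16 in the control islets and -2.34, -2.34, -2.33 and -2.34 in the βFbln5KO islets. The groups did not overlap, and the βFbln5KO values were nearly equal to each other. The fitted log2 difference was -0.29 ± 0.09 (SE, n = 4 per group), a fold of 0.82, with a limma unadjusted p of 0.0141, an adjusted p of 0.0864 and an exact permutation p of 0.029, the smallest possible. Its unadjusted p stayed under 0.05 in all 18 alternative settings, with differences from -0.32 to -0.24, while the adjusted p ran from 0.0498 to 1. Of the 76 well-detected pathway genes 2, Bgn and Nodal, were lower without overlap, where 2.07% of the well-detected named genes were. The mean level of 8 mesenchymal markers, the cells known to make biglycan, was -0.59 to 0.42 for the controls and -0.52 to 0.04 for the βFbln5KO group (exact permutation p = 0.657, n = 4 per group), and its part in the Bgn value was not tested.

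Acvr2b, a type II receptor for activins, read 2.15, 1.97, 2.12 and 2.11 in the control islets and 1.78, 2.10, 1.94 and 1.70 in the βFbln5KO islets. Replicates 1, 3 and 4 of the βFbln5KO group lay below all controls. On the log2 scale the groups differed by -0.21 ± 0.09 (SE; limma unadjusted p = 0.0409, adjusted p = 0.176), and the unadjusted p stayed under 0.05 in 9 of 18 alternative settings. Acvr1b, a type I activin receptor that was named after its values were seen, read -3.56, -3.66, -3.76 and -3.53 in control and -3.60, -1.44, -0.56 and -3.35 in βFbln5KO islets. βFbln5KO replicates 2 and 3 stood high, and replicate 4 lay slightly above the controls. The difference of 1.39 ± 0.63 (SE) did not pass (limma unadjusted p = 0.0538, adjusted p = 0.213). Its limma unadjusted p was 0.0477 with the filter on dim probes, 0.0451 in the deposited table and 0.0499 with the spot-row trend removed. Without βFbln5KO replicate 1 the difference was 1.85 (limma unadjusted p = 0.0122), and without replicate 4 it was 1.76 (limma unadjusted p = 0.0280). Without βFbln5KO replicate 2 or 3 the limma unadjusted p was not under 0.05.

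In the other groups no well-detected gene reached an unadjusted p of 0.05 in the main fit, and the gene with the smallest p is given for each. Among 11 genes of ligand latency and activation, 9 of them well detected, this was the latent TGF-β binding protein Ltbp2, with a log2 difference of -0.46 ± 0.22 (SE; limma adjusted p = 0.236). The Ltbp2 difference ran from -0.63 to -0.35 over 18 alternative settings, with an unadjusted p under 0.05 in 3 of them and no adjusted p under 0.1585. Among 13 related ligands, 8 of them well detected, the gene with the smallest p was Nodal. Nodal read -2.68, -3.61, -3.51 and -3.14 in control and -3.76, -3.66, -3.90 and -3.76 in βFbln5KO islets, without overlap but with βFbln5KO replicate 2 only just below control replicate 2. Its difference was -0.53 ± 0.24 (SE; limma unadjusted p = 0.050, adjusted p = 0.203). Over 18 alternative settings it ran from -0.66 to -0.26, with an unadjusted p under 0.05 in 8 of them and no adjusted p under 0.145.

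Among the 15 other Smads and Smad regulators, 13 of them well detected, Tgif1, a nuclear corepressor, had the smallest p, with -0.25 ± 0.15 (SE; limma adjusted p = 0.353). The 9 genes of the TAK1 and MAP kinase branch, through which the pathway acts without Smads, were all well detected and had differences between -0.10 and 0.11. The smallest p of that group was that of Tab1, an activator of TAK1, with -0.10 ± 0.05 (SE; limma adjusted p = 0.306). Of the 23 known targets, 21 of them well detected, 13 were above 0 and 10 below, with a median of 0.01. The smallest p of the well-detected ones was that of Fbln5, described above. Fbln5 is the deleted gene, so its lower level cannot be read as a change of the targets. Next was Id2, which the rule for named genes did not pick, with 0.24 ± 0.14 (SE; limma adjusted p = 0.348).

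Markers of the islet and its neighbouring tissue were read beside these genes. All 8 β-cell markers were well above background on every array, with a mean level of 5.13 to 5.20 in control and 5.05 to 5.18 in βFbln5KO islets. No marker of the 9 cell type lists passed an adjusted p of 0.05 by limma, and exact permutation tests of the list means gave p between 0.057 for α-cells and 0.971 for endothelial cells. Ptprc of the macrophage list was lower in βFbln5KO islets at an unadjusted p under 0.05, with a log2 difference of -0.29. The acinar list varied most, with mean levels of 4.33 to 6.48 in control and 3.66 to 5.59 in βFbln5KO islets, and its part in the member values was not tested.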

How the data were processed

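Total RNA from isolated islets of 4 control and 4 βFbln5KO samples was labelled with Cy3 and hybridised to 1-colour Agilent mouse arrays. Per the file headers, the deposited intensity values came from Agilent Feature Extraction 11.0.1.1, with background subtraction and spatial detrending but no scaling between arrays, and with flags set for each spot. The authors also deposited a table of ratio values for 35553 probes, and their methods name GeneSpring with per-chip normalization. Once a constant factor was allowed for each array, 100% of its values equalled the processed signal divided by the 75th percentile of the array (within 0.1%). Group differences from the table were therefore slightly shifted, as for Tgfbr2 (-0.137 against -0.143 in the main fit). The table was used as an alternative.

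From the processed intensity, log2 values minus each array's 75th percentile over non-control spots were computed, spots marked as outliers left out (0.356% of values), and spots of a probe averaged. A probe counted as well above background where every spot of it was. limma 3.58.1 in R 4.3.3 (lmFit, eBayes with trend) was fitted on all 56605 probes, with Benjamini-Hochberg adjustment over all of them and a threshold of 0.05; the script was tested on simulated data. RefSeq (GRCm38.p6) gave 1 gene symbol to 58.3% of the probes. The number of arrays, 4 per group, limits the precision, and biological replicates are as labelled by the submitters.

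The members and lists were chosen with earlier results of these data known. The text names all 10 genes and Fbln5, and, of each pathway list, genes past an adjusted p of 0.05 or, with at least 1 array well above background, an unadjusted p of 0.05, otherwise the gene with the smallest p among those well above background on all 8 arrays; marker genes are named past an unadjusted p of 0.05, except for 1 item that is not reported here. Alternatives changed the background correction, normalization, filter, floor, variance model, outlier spots, test, source table, replicate block, probe choice and each array in turn; removal of the spot-row trend was added after the data were seen. Probe and protein sequences were not used here.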

Additional observations from a re-analysis of the deposited data

Results flagged for a closer look

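In 3 probes the array of βFbln5KO replicate 1 stood apart from the other 3 arrays of its group, by a gap that took up most of the range of the group. For Tgfb1 (-3.29 against -3.01 to -2.98) the gap was 0.923 of the range, for Smad2 (-0.34 against -0.10 to -0.08) 0.937, and for Smad3 (-1.58 against -1.06 to -0.98) 0.855, each above the critical value of Dixon's test for 4 arrays. All 3 were the brighter probe of the gene and lay beyond spot row 320. Chance flags about 1 in 20 groups, so 1.7 of the 34 groups tested would be expected. The array of βFbln5KO replicate 1 also had the largest number of spots marked as outliers, 398 against 125 to 346 on the others.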

How the results depend on the processing

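No alternative brought a member past an adjusted p of 0.05. At an unadjusted p under 0.05 the number of member probes lower in βFbln5KO islets rose from 0 to 1 with quantile normalization, with a common floor (both Tgfbr2) and with eBayes without a trend (the dim Tgfbr1 probe), and the number of member genes to 1 with quantile normalization and the floor; both ran from 0 to 1 when arrays were left out in turn (Tgfbr2 without control replicate 1 or βFbln5KO replicate 4). The pathway genes past adjustment numbered 2 without a trend (Grem1 and Bgn), and 0 to 5 when arrays were left out, the 5 (Itgb6, Mstn, Grem1, Lox and Fbln5) without βFbln5KO replicate 4. Over all probes the calls went from 5 higher and 1 lower to 6184 and 394 without a trend, to 11206 and 338 without βFbln5KO replicate 4, to 82 and 5 with the methods' t-test (23.3% at its own threshold), and to 5 and 5 with quantile normalization; the cause was not tested. The share of probes higher at an unadjusted p under 0.05 went from 20.7% to 0.532% with normexp, 1.82% with quantile normalization, 0.618% with the floor, 0.752% with the filter on dim probes and 1.45% in the deposited table. Pathway genes higher at an unadjusted p under 0.05 went from 3 (Itgb6, Mstn and Grem1) to 1 gene outside those 3 with the deposited table and the filter (Acvr1b) and with quantile normalization and normexp (Acvr2a), to 0 with the floor and to 6 with the spot-row trend removed, and lower ones from 2 to 4 with the mean over the probes of a gene; left-out arrays gave 3 to 7 (7 without βFbln5KO replicate 2) and 1 to 4 (1 without control replicate 4).

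Small differences changed sign. Tgfb1 became 0.008 with the row trend removed and ran from -0.115 to 0.027 over left-out arrays; Tgfb3 became 0.013 with quantile normalization and 0.007 with the row trend removed and ran from -0.134 to 0.115; Tgfbr3 ran from -0.073 to 0.084 and Smad3 from -0.160 to 0.042. Tgfbr1 became -0.169 as the mean of its probes and -0.453 by the probe with the smallest p. Smad4 became 0.025 with the row trend removed, 0.041 as the mean of its probes and 0.163 by the smallest p, and ran from -0.032 to 0.021; Smad7 became 0.007 with normexp, 0.015 with quantile normalization and 0.022 with the row trend removed, and ran from -0.062 to 0.037. Fbln5 ran from -0.784 to -0.329 over left-out arrays. With the replicate number as a block, 0 of 19 member probes passed an adjusted or unadjusted p of 0.05, and the calls over all probes went from 6 to 2; same-numbered arrays of the groups deviated together with correlations of -0.224 to 0.291 and 4 of 8 arrays correlated best with their own number, so the numbers were not taken as pairs.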

Other observations

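Bmp7, a bone morphogenetic protein ligand chosen here after its values were seen, read -3.12, -3.29, -0.75 and -2.03 in control replicates 1 to 4 and -3.33, -4.03, -4.15 and -2.13 in βFbln5KO replicates 1 to 4. The mean level of 8 acinar markers on the same arrays was 4.72, 4.33, 6.48 and 6.03, then 4.65, 3.69, 3.66 and 5.59. Replicates 3 and 4 of the control group and replicate 4 of the βFbln5KO group were the 3 highest arrays for both. The log2 difference of Bmp7 was -1.11 ± 0.63 (SE, n = 4 per group; limma adjusted p = 0.339). Single arrays weighed on it, control replicate 3 being the highest of all. Without βFbln5KO replicate 4 the difference was -1.54 (limma unadjusted p = 0.0409), and no other array left out brought that p under 0.05. The part of acinar RNA in the Bmp7 difference was not tested.

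Lox, a matrix crosslinking enzyme and known target, and Gdf11, a related ligand, both chosen after their values were seen, were each well above background on 1 array. Lox read -2.58 on βFbln5KO replicate 4 and between -7.28 and -5.80 on the other 7 arrays. Gdf11 read -1.95 on βFbln5KO replicate 3 and between -7.18 and -6.16 elsewhere.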
